A study of Mus musculus with 14 samples.

Results

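The glucocorticoid receptor gene Nr3c1 and 9 genes that this receptor is known to induce (Fkbp5, Tsc22d3, Sgk1, Dusp1, Klf9, Ddit4, Zbtb16, Tgm2 and Anxa1) were followed in the blood of mice stressed early in life. The genes were listed by name, but with earlier results of these data known, and they were represented by 13 array probes. The 10 genes stand among 11481 genes that had a symbol and a probe bright enough to test, and a gene's brightest tested probe represents it below. RNA was measured on 14 arrays, 1 per labelled mouse. The labels do not say what the SS mouse number 01b means beside mouse 1, and they are counted here as separate mice. The 8 SS mice had met a hostile social environment in the third postnatal week. The 6 SI mice had been socially isolated as juveniles. All 14 mice then received cocaine at 5 mg/kg, a dose below the conditioning threshold, in a place preference test, went through extinction and withdrawal, and were bled 24 hours later. Every comparison is therefore SS against SI, since no unstressed and no cocaine-free mouse was compared here. Strain and age at bleeding are not given in the labels used here. Red cells were lysed and the remainder was called PBMC, with no density gradient or sort named.

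One slide carried the 4 SS and 4 SI mice labelled male and the other carried the 4 SS and 2 SI mice labelled female. Slide and sex label therefore cannot be told apart, and neither can stress group and the column of the slide an array lay in. The sex labels went against the data: the Y-linked transcripts Eif2s3y and Ddx3y were well above background on 6 of the 6 arrays labelled female and on 0 of the 8 labelled male, so the label is given here only as a name. Ptprc, the pan-leukocyte marker, was well above background on all 14 arrays. The SI labelled male mouse 4 stood apart. Its array correlated at 0.833 to 0.896 with the other 3 of its group, which correlated at 0.969 to 0.972 with each other. The SS labelled male mouse 3 correlated at 0.927 to 0.939 with the rest of its group. Results are given with and without SI mouse 4.

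Glucocorticoids, corticosterone in mice, are the end hormones of the stress axis. The hormone enters the cell and binds the receptor, which is held by Hsp90 and its co-chaperones in the cytoplasm, and the receptor moves to the nucleus and binds DNA, often as a pair of molecules on a palindrome of hexamers. In leukocytes the receptor is known for inducing genes that dampen inflammatory signalling, for repressing cytokine genes, and for inducing Fkbp5, which lowers the receptor's own affinity for the hormone.

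Promoter windows of 250 bases before an annotated start were taken for 7 of the 10 genes, as 14 windows, in RefSeq sequence of GRCm38.p6. Nr3c1 was left out of the search by name, and Tgm2 and Zbtb16 had no window. Some of the windows are shown to let the receptor's letters be seen beside the genes measured. The search looked on both strands for the hexamer AGAACA, which reads TGTTCT on the other strand, and for the full palindrome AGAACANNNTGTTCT. It also looked for the cAMP response element TGACGTCA and its short form TGACG, which reads CGTCA on the other strand. A full motif overlaps its short forms. Capitals mark all of these letters. The windows are the fifth of 6 for Sgk1 at chr10:21993640-21993889 on the plus strand, the third of 3 for Tsc22d3 at chrX:140600523-140600772 on the minus strand, and the single windows of Dusp1 at chr17:26508473-26508722 and of Anxa1 at chr19:20390672-20390921, both on the minus strand.
Sgk1: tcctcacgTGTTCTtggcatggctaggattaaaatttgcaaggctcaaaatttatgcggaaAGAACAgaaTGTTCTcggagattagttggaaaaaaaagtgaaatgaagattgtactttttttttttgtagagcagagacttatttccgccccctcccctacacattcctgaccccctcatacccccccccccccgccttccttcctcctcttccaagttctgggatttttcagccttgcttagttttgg
Tsc22d3: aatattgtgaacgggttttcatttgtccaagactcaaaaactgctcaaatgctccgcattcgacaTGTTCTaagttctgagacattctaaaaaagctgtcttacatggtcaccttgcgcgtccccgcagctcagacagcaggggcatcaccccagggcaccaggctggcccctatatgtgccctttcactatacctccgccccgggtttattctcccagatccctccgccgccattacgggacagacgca
Dusp1: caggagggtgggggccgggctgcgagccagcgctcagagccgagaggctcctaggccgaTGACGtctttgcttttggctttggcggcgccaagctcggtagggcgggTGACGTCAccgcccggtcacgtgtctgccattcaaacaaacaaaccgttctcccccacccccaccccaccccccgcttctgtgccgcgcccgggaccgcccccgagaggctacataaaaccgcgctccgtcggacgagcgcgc
Anxa1: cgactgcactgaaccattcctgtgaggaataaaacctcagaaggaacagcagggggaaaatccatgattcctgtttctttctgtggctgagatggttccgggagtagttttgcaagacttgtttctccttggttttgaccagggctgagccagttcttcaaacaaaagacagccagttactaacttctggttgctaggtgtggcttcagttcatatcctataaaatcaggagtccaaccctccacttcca
The Sgk1 window held the full palindrome, starting 189 bases before the start, and no other Sgk1 window did. No other Tsc22d3 window held the hexamer. The windows printed for these genes are thus those with the most of the receptor's letters. That palindrome was in 3 of 32851 mouse promoter windows of this length, or 0.00913%. The hexamer alone was in 4 of the 14 windows, against 16.1% of all windows. These 4 windows belong to only 2 genes, Sgk1 and Tsc22d3, as windows of different starts. The Dusp1 window held TGACGTCA, present in 1.55% of all windows, starting 143 bases before the start. The Anxa1 window held none of these letters, which says nothing of the receptor's binding elsewhere. A match is a description of the sequence and not a site of binding.

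Of the 10 genes, 1 passed the test over all mice: Tgm2, the calcium-dependent cross-linking enzyme transglutaminase 2, fell 2-fold in SS against SI. Anxa1, which encodes the anti-inflammatory protein annexin A1, passed on the slide labelled female, where it fell 4.29-fold. Nr3c1 itself, at a log2 difference of -0.40, passed in neither. The direction was shared more widely than the calls: 7 of the 10 genes were lower in SS over all mice, as were 53.4% of all probes, and the same 7 were lower on both slides, as were 28.4% of all probes. The median difference over the 10 genes was -0.40 on the log2 scale, against -0.14 over all 11481 genes and -0.04 over all probes. On the slide labelled male the medians were -0.15 over all genes and 0.09 over all probes. Shares of probes, here and below, are therefore not shares of genes, which lay lower by these medians. In the authors' deposited table the median over the 10 genes was -0.21 over all mice and -0.03 on the slide labelled male. Nr3c1 (0.0546) and Sgk1 (0.0145) lay above 0 on that slide there. Over all mice 7.97% of the 24013 tested probes passed at an adjusted p under 0.05, with 7.4% higher and 0.571% lower in SS. On the slide labelled female 4% passed, 3.18% higher and 0.82% lower. The slide labelled male had 0% past the threshold, and none of the 10 genes did, by limma with Benjamini-Hochberg adjustment. At an unadjusted p under 0.05 that slide had 5700 probes and 2 of the 10 genes, Zbtb16 and Tgm2. These p-values set a difference against the spread between these mice within groups, which limma moderates across probes, and the number of arrays limits their precision. For a single slide, too, that spread is estimated from the mice of both slides together.

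**Figure D1:**
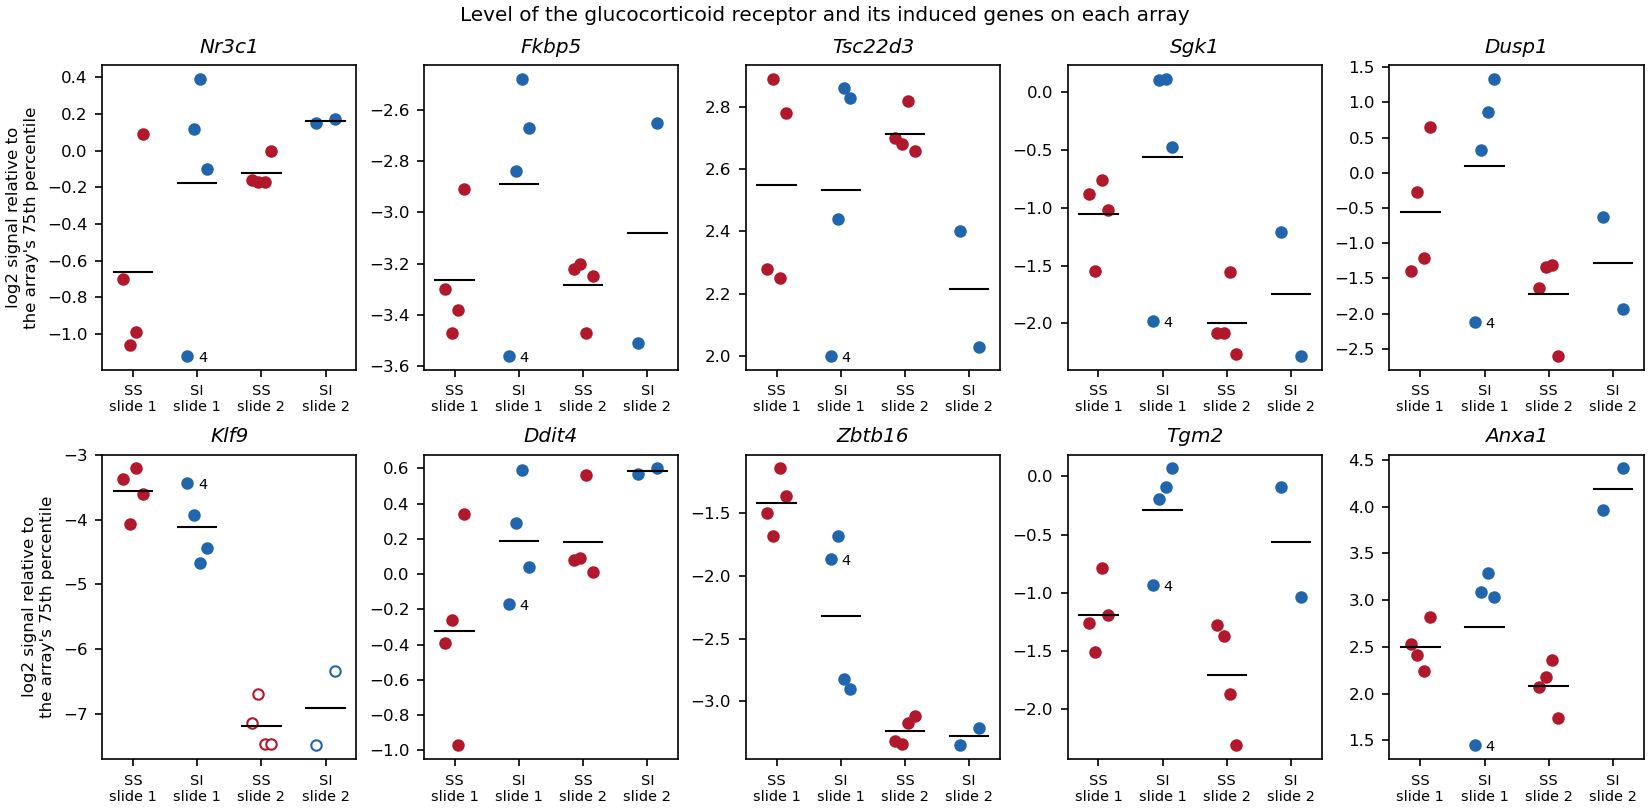
Level of each of the 10 genes on each array, as the log2 signal relative to the array's 75th percentile (vertical axis), for SS (red) and SI (blue) on slide 1 (labelled male) and slide 2 (labelled female). Points are mice, lines are group means, open points were not well above background, and 4 marks the SI labelled male mouse 4. On slide 2 every Tgm2 and Anxa1 point of SS lies below every SI point, and all Klf9 points are open.

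Levels below are log2 signals minus the array's 75th percentile, taken over probes well above background on all arrays. They compare mice for 1 probe and not 1 gene with another. Values run in the order of mice 01b, 1, 2 and 3 for SS labelled male, 4, 5, 6 and 7 for SI labelled male, 20, 21, 22 and 23 for SS labelled female, and 27 and 28 for SI labelled female.

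Nr3c1 encodes the receptor. Among mice labelled male its levels were -0.70, -1.06, -0.99 and 0.09 in SS and -1.12, 0.12, 0.39 and -0.10 in SI. The lowest of these 8 levels was that of SI mouse 4 and SS mouse 3 stood with the other 3 SI mice, so the groups overlapped. Among mice labelled female it stood at -0.16, -0.17, -0.17 and 0 in SS and at 0.15 and 0.17 in SI, with every SS mouse below both SI mice. The log2 difference was -0.40 (SE 0.24) over all mice, with a 95% interval from -0.92 to 0.11 and a limma adjusted p of 0.373. In the authors' deposited table the difference over all mice was -0.06 (SE 0.34; limma adjusted p = 0.939). It was -0.49 by the scanner signals on the slide labelled male and -0.28 on the slide labelled female. A second, dimmer probe, well above background on 12 arrays, gave -0.21 over all mice (limma adjusted p = 0.702).

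Fkbp5 encodes the co-chaperone of Hsp90 that closes the receptor's negative feedback loop. Its levels on the slide labelled male were -3.30, -3.47, -3.38 and -2.91 in SS and -3.56, -2.84, -2.48 and -2.67 in SI. All 4 SS mice lay below SI mice 5, 6 and 7 and above SI mouse 4. Among mice labelled female the SS levels of -3.22, -3.20, -3.47 and -3.25 lay between the SI levels of -3.51 and -2.65. Fkbp5 differed by -0.31 (SE 0.20) over all mice, with an interval from -0.74 to 0.11 and a limma adjusted p of 0.40.

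Tsc22d3 encodes GILZ, the leucine zipper protein that holds back NF-kappaB and AP-1. It stood at 2.28, 2.89, 2.25 and 2.78 in SS labelled male and at 2.00, 2.44, 2.86 and 2.83 in SI labelled male, in overlapping ranges. Among mice labelled female it stood at 2.70, 2.68, 2.82 and 2.66 in SS and at 2.40 and 2.03 in SI, with every SS mouse above both SI mice. Over all mice the difference was 0.21 (SE 0.19; limma adjusted p = 0.546), with a 95% interval from -0.19 to 0.61. Tsc22d3 and Zbtb16 were the 2 genes of the list whose SS mean was the higher on both slides, although the Tsc22d3 difference on the slide labelled male, 0.02, turned below 0 under 4 of 8 other settings.

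Dusp1 encodes the phosphatase that switches off p38 and JNK signalling. In mice labelled male its levels were -1.40, -0.27, -1.21 and 0.65 in SS and -2.12, 0.32, 0.86 and 1.33 in SI. Dusp1 had the widest SI spread of the 10 genes on that slide, an SD of 1.53, with SI mouse 4 the lowest and SI mouse 7 the highest of the 8. In mice labelled female the levels were -1.64, -1.34, -1.31 and -2.60 in SS and -0.63 and -1.93 in SI, again overlapping. The difference over all mice was -0.57 (SE 0.51; limma adjusted p = 0.55), with an interval from -1.67 to 0.53.

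Anxa1 encodes annexin A1, a protein abundant in neutrophils and monocytes that limits leukocyte migration through the receptor Fpr2. Among mice labelled female Anxa1 stood at 2.07, 2.18, 2.36 and 1.74 in SS and at 3.96 and 4.41 in SI. The groups were well separated: the highest SS level was 2.36 and the lowest SI level 3.96. The difference was -2.10 (SE 0.43), a 4.29-fold fall with a limma adjusted p of 0.0256, and a second probe gave -2.03 (limma adjusted p = 0.0296). Among mice labelled male Anxa1 stood at 2.53, 2.41, 2.24 and 2.82 in SS and at 1.45, 3.09, 3.29 and 3.03 in SI. There SI mouse 4 had the lowest level of the 8 and the other 3 SI mice had the highest. The difference on that slide was -0.21 (SE 0.35; limma adjusted p = 0.708), and over all mice it was -0.97 (SE 0.36; limma adjusted p = 0.134). The difference between the slides, -1.89 (SE 0.55), did not pass (limma adjusted p = 0.268; 0.0458% of probes passed this test). The fall on the slide labelled female missed the threshold in each of the 6 fits that left out 1 array of that slide, with limma adjusted p from 0.0507 to 0.143, with no filter on dim probes (limma adjusted p = 0.0793), and in the authors' deposited table, where the difference was -1.19 (limma adjusted p = 0.0599). Neutrophil markers moved with it. There 7 of their 10 tested markers fell, and their summed level, in multiples of the array's 75th percentile, was 152 to 189 in SS and 475 to 727 in SI. In these bulk samples fewer cells of a type and less RNA per cell cannot be told apart, and the part of the neutrophil markers in the Anxa1 result was not tested.

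Sgk1 encodes a kinase of sodium transport and cell survival. Its levels in mice labelled male were -0.88, -1.55, -0.76 and -1.02 in SS and -1.98, 0.10, 0.11 and -0.48 in SI. SI mice 5, 6 and 7 lay above all 4 SS mice and SI mouse 4 below them. In mice labelled female Sgk1 stood at -2.08, -2.08, -1.56 and -2.26 in SS and at -1.21 and -2.28 in SI, so that the SI mice bracketed the SS mice. The difference was -0.40 (SE 0.32; limma adjusted p = 0.50) over all mice, with an interval from -1.08 to 0.28.

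Ddit4 encodes REDD1, an inhibitor of the growth kinase complex mTORC1. It stood at -0.39, -0.26, -0.97 and 0.34 in SS labelled male and at -0.17, 0.29, 0.59 and 0.04 in SI labelled male. SS mouse 3 lay within the SI range and the other 3 SS mice below it. In mice labelled female Ddit4 stood at 0.08, 0.09, 0.56 and 0.01 in SS and at 0.57 and 0.60 in SI, with SS mouse 22 next to the SI mice and no overlap. Over all mice the difference was -0.46 (SE 0.20), at an unadjusted p of 0.0398 and a limma adjusted p of 0.217.

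Klf9 encodes a zinc finger transcription factor that is an early target of the receptor. Among mice labelled male it stood at -3.36, -4.06, -3.20 and -3.60 in SS and at -3.43, -3.92, -4.66 and -4.44 in SI. SS tended to the upper part of a shared range, and the difference of 0.56 (SE 0.34) had a limma adjusted p of 0.307. Among mice labelled female Klf9 was not well above background on any of the 6 arrays, so no fold is given there, and the difference over all mice, 0.22, rests in part on those dim arrays.

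Zbtb16 encodes PLZF, a transcription factor of innate-like lymphocytes. Its levels in mice labelled male were -1.50, -1.68, -1.14 and -1.36 in SS and -1.86, -1.68, -2.82 and -2.90 in SI. SS lay above SI, but SS mouse 1 and SI mouse 5 met at -1.68 when rounded, and the SI mice formed a near and a far pair. The 1.86-fold difference on that slide, 0.90 (SE 0.27), missed the threshold (limma adjusted p = 0.0909). In mice labelled female the levels were -3.32, -3.34, -3.17 and -3.12 in SS and -3.35 and -3.21 in SI, and the difference was 0.04. The difference between the slides, -0.86 (SE 0.43), did not pass (limma adjusted p = 0.427).

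Tgm2 encodes transglutaminase 2, which macrophages and other phagocytes make. Its levels in mice labelled male were -1.26, -1.51, -0.79 and -1.19 in SS and -0.93, -0.19, -0.09 and 0.07 in SI. Only SI mouse 4 reached into the SS range, below SS mouse 2. In mice labelled female Tgm2 stood at -1.28, -1.37, -1.87 and -2.31 in SS and at -0.09 and -1.04 in SI, without overlap. Tgm2 fell by 1.00 (SE 0.24) on the log2 scale over all mice, with an interval from -1.50 to -0.49 and a limma adjusted p of 0.0154. Its second probe fell by 0.95 (limma adjusted p = 0.0317). The slides gave -0.90 and -1.14, neither past the threshold alone (limma adjusted p = 0.115 and 0.124). The call was lost without SI mouse 27, at -0.84 (limma adjusted p = 0.0593), and with no filter on dim probes (limma adjusted p = 0.0616), and in the authors' deposited table the difference was -1.77 (limma adjusted p = 0.0291). Of 7 tested monocyte markers 6 lay below 0 over all mice, as did 53.4% of all probes. By limma 1 passed as lower (0.571% of all probes), and 3 were lower at an unadjusted p under 0.05 (6.54%). Their summed level was 23 to 30.6 in SS and 26.7 to 33 in SI labelled male, and 15.9 to 26 in SS and 28.7 to 57 in SI labelled female. Over the 14 arrays, each slide centred, Tgm2 had a Pearson's r of 0.83 with the mean level of the monocyte markers. With the platelet markers it was -0.79. The part of these markers in the Tgm2 result was not tested.

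**Figure D2:**
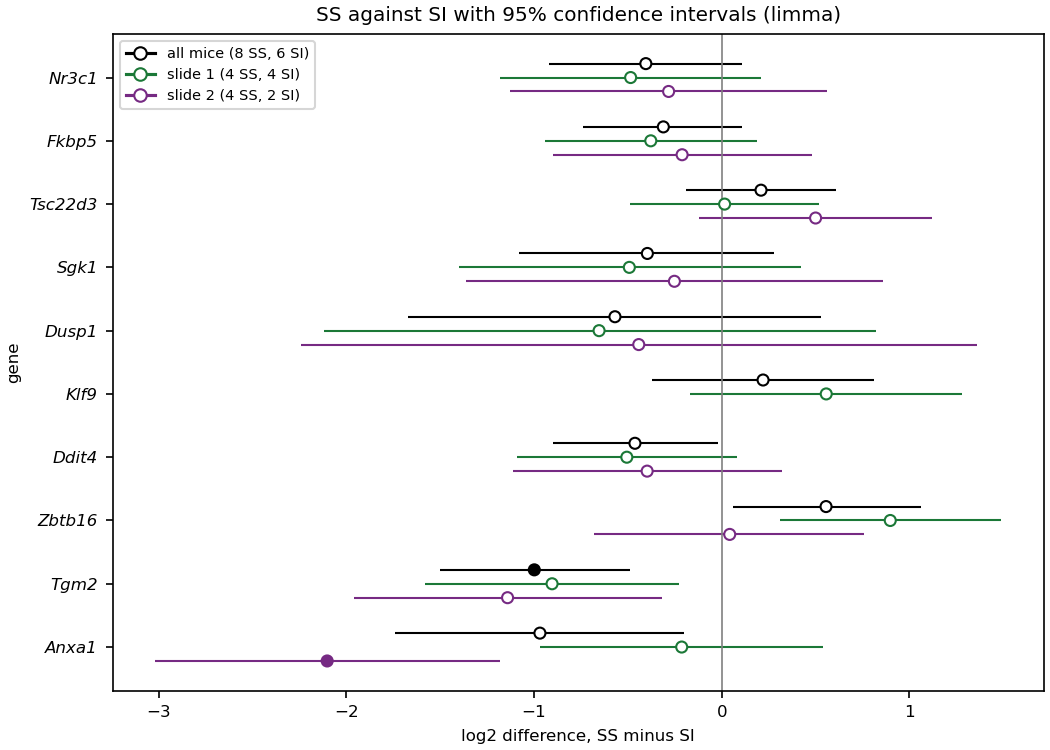
Log2 difference, SS minus SI (horizontal axis), for each gene over all mice (black), on slide 1, labelled male (green), and on slide 2, labelled female (purple), with 95% confidence intervals from limma. Filled points passed at an adjusted p under 0.05: Tgm2 over all mice and Anxa1 on slide 2. Klf9 on slide 2 is not drawn because no array there had it well above background.

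By overlap, 1 of the 10 genes separated SS from SI on the slide labelled male, Zbtb16, where 9.57% of all probes did. The slide labelled female separated 5 of the 10 and 34.7% of all probes: Nr3c1, Ddit4, Tgm2 and Anxa1 with SS below SI, and Tsc22d3 with SS above. All probes had SS wholly below SI in 1.17% on the slide labelled male and 18.2% on the slide labelled female. No gene of the list lay without overlap on both slides. In the authors' deposited table the differences over all mice were smaller in size than here for Tsc22d3 (0.07), Sgk1 (-0.20), Ddit4 (-0.30) and Anxa1 (-0.56) and larger for Zbtb16 (1.25; limma adjusted p = 0.139).

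Leaving out SI mouse 4 changed what the slide labelled male showed. That mouse had the lowest level of the 8 arrays for 6 of the 10 genes, where it was lowest for 24.2% of all probes: Nr3c1, Fkbp5, Tsc22d3, Sgk1, Dusp1 and Anxa1. It was the lowest of the 4 SI mice of that slide for 8 of the 10 genes and for 42.1% of all probes. Without it 7 of the 10 genes passed on that slide, as did 39.2% of all probes, 17.1% lower and 22.1% higher in SS. Of these, 6 fell, the receptor among them: Nr3c1 by 0.80 (limma adjusted p = 0.03), Fkbp5 by 0.60 (0.0494), Sgk1 by 0.96 (0.0268), Dusp1 by 1.39 (0.0493), Tgm2 by 1.12 (0.0181) and Anxa1 by 0.63 (0.0327). Zbtb16 rose by 1.05 (0.0171). Over all mice without it 2 genes passed, Tgm2 at -1.13 (limma adjusted p = 0.00391) and Anxa1 at -1.28 (limma adjusted p = 0.00487), where 16.1% of probes did, 6.03% lower and 10% higher. Anxa1 also passed on the slide labelled female without that mouse (limma adjusted p = 0.00298; 7.96% of probes). Its difference there stayed at -2.10. The slides share 1 estimate of spread, and the SE went from 0.43 to 0.23, so the lower p adds nothing from the mice of that slide. The Anxa1 difference between the slides then passed as well, at -1.47 (limma adjusted p = 0.0441; 2.79% of probes). That array also held the highest summed red cell precursor signal of its group, 3231 against a group median of 1030, and the highest platelet signal, 426 against a median of 265. The part of these in its low levels was not tested.

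**Figure D3:**
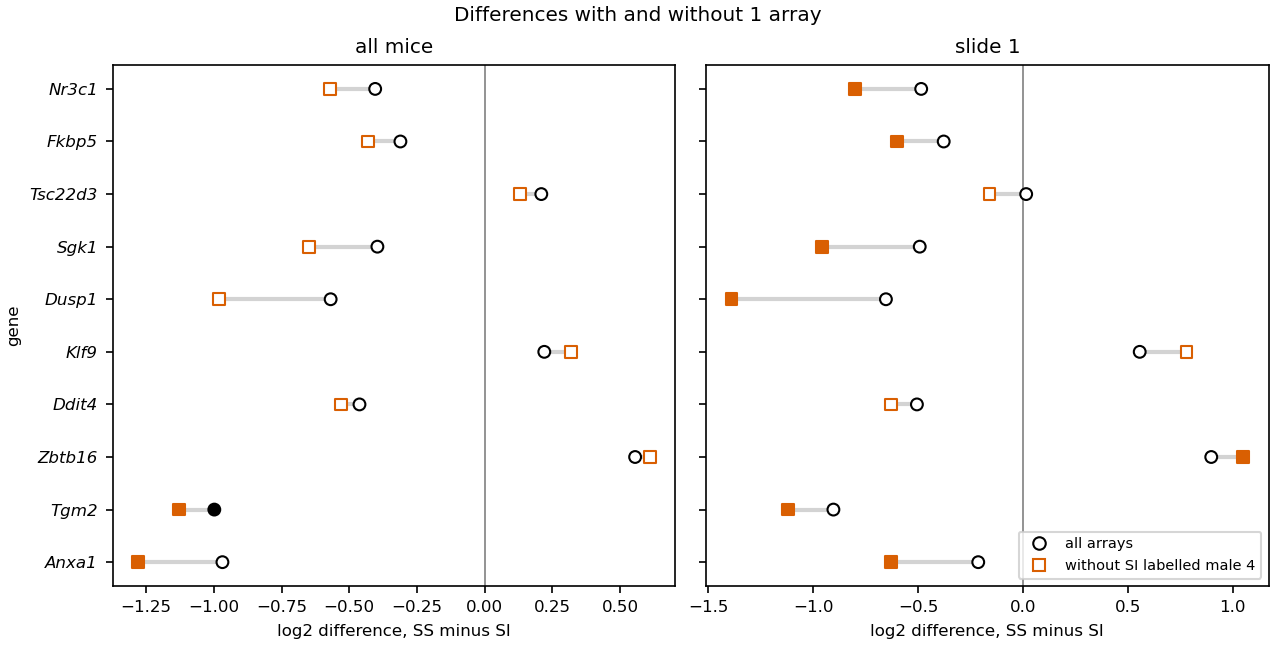
Log2 difference, SS minus SI, for each gene over all mice (left) and on slide 1, labelled male (right), with all arrays (circles) and without the SI labelled male mouse 4 (squares). Filled symbols passed at an adjusted p under 0.05 by limma; on slide 1 none passed with all arrays and 7 of 10 passed without that mouse.

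Levels differed between the slides as well as between the groups, which was described and not tested. The mean level on the slide labelled female minus that on the other was -1.38 for Zbtb16, -1.34 for Dusp1 and -1.10 for Sgk1 on the log2 scale. The Zbtb16 ranges of the slides did not meet, and Klf9 was well above background on all 8 arrays of the slide labelled male and on none of the other. The difference was 0.01 for Tsc22d3 and -0.14 for Fkbp5.

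The other genes of the pathway were listed by role. Of 33 further genes known to be induced by glucocorticoids 24 were tested, and over all mice 1 passed, Fam107a, an actin-associated protein of the stress response, which rose 2.15-fold (log2 1.10, SE 0.31; limma adjusted p = 0.0439). Over all mice 7.4% of probes rose and 0.571% fell. Fam107a passed in 3 of 14 fits that left out 1 array each, and its call was lost with slide as a random block (0.94, SE 0.62; limma adjusted p = 0.487), with array row as a term (0.0571), with normexp background correction (0.0688), with no filter on dim probes (0.125) and in the authors' deposited table (0.153). The other 23 lay below 0, as did 53.4% of all probes. None of these 23 passed, and 6 were lower at an unadjusted p under 0.05, where 6.54% of all probes were lower and 13.8% higher. The list had a median of -0.52 against -0.14 over all genes. Per1, the clock gene, differed by -0.46 (SE 0.36), Cebpd, a leukocyte transcription factor, by -0.88 (SE 0.33), and Mt1, a metallothionein, by -1.91 (SE 0.95), with limma adjusted p of 0.494, 0.13 and 0.278. Without SI mouse 4 the list had 8 genes that fell and 1 that rose, in a fit where the share of all probes that fell went from 0.571% to 6.03% and 10% rose. On the slide labelled female 1 gene of the list fell, Fpr2, the receptor of annexin A1, named after its value was seen, at -2.15 (SE 0.43; limma adjusted p = 0.0239). The neutrophil markers given beside Anxa1 moved with it, and their part was not tested.

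Genes known to be repressed by glucocorticoids lay on the same side. Of 20 inflammatory genes 14 were tested, all 14 lay below 0 over all mice, as did 53.4% of all probes, and 1 fell, as did 0.571% of all probes. The list had a median of -0.68. It was Csf1, the growth factor of macrophages. Csf1 stood at -1.54, -2.09, -1.74 and -2.39 in SS labelled male and at -0.82, -1.17, -0.50 and -0.53 in SI labelled male. It stood at -1.71, -1.75, -2.62 and -2.84 in SS labelled female and at -1.32 and -0.90 in SI labelled female. On both slides every SS mouse lay below every SI mouse, as for 0.483% of probes. Csf1 fell by 1.16 (SE 0.23) on the log2 scale, 2.23-fold, with a limma adjusted p of 0.00565, and it passed in each of the 14 fits that left out 1 array. In the authors' deposited table its difference was -2.64 (SE 0.33; limma adjusted p = 0.00219). Il1b and Tnf, cytokines of the innate response, differed by -0.91 (SE 0.44) and -0.37 (SE 0.30), with limma adjusted p of 0.269 and 0.507. Without SI mouse 4 the repressed list had 6 genes that fell, where 6.03% of all probes did.

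Partners of the receptor came next. Of 15 chaperones and co-chaperones 0 passed over all mice by limma, and 14 lay below 0, as did 53.4% of all probes (median -0.18). The 1 above 0, Hsp90aa1, was higher at an unadjusted p under 0.05 by limma, as were 13.8% of all probes. Hsp90aa1, the inducible Hsp90, differed by 0.40 (SE 0.15; limma adjusted p = 0.13) with every SS mouse above every SI mouse on both slides, as for 5.11% of probes. Ppp5c, well above background on 8 arrays, had the largest difference of the list, -0.45 (SE 0.34; limma adjusted p = 0.478). It was -0.74 in the authors' deposited table and -0.07 with normexp background correction. Dnajb1 differed by -0.28, or -0.17 in the authors' deposited table. Of 14 coactivators and corepressors 2 rose, as did 7.4% of all probes. Ncoa1, a steroid receptor coactivator, stood at 0.45, 0.99, 0.72 and 0.63 in SS and at 0.02, 0.10, -0.35 and 0.12 in SI labelled male, and at 0.10, 0.13, 0.20 and 0.57 in SS and at -0.34 and -0.64 in SI labelled female. Ncoa1 too was among the 5.11% of probes with SS wholly above SI on both slides, and it rose by 0.73 (SE 0.15; limma adjusted p = 0.00645), or 1.66-fold. That call was lost with the 75th percentile taken over all probes (limma adjusted p = 0.0716) and with no filter on dim probes (0.0564). Ncoa2 rose by 0.51 (SE 0.15; limma adjusted p = 0.0476), and it passed in 2 of 14 fits that left out 1 array. Its call was lost under several other settings, among them slide as a random block (limma adjusted p = 0.071) and the authors' deposited table (1.39; limma adjusted p = 0.0514). Of 8 genes of steroid conversion and export 4 were tested and 1 fell, H6pd, which supplies NADPH to the enzyme that regenerates active glucocorticoid, at -0.80 (SE 0.22; limma adjusted p = 0.0388), where 0.571% of all probes fell. H6pd passed in 3 of 14 such fits, and its call was lost with the 75th percentile over all probes (limma adjusted p = 0.116), with quantile normalization (0.0867), with no filter on dim probes (0.152) and in the authors' deposited table (0.15). That enzyme, Hsd11b1, named after its value was seen, fell on the slide labelled female at -1.22 (SE 0.25; limma adjusted p = 0.0272), where the neutrophil markers fell too.

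**Figure D4:**
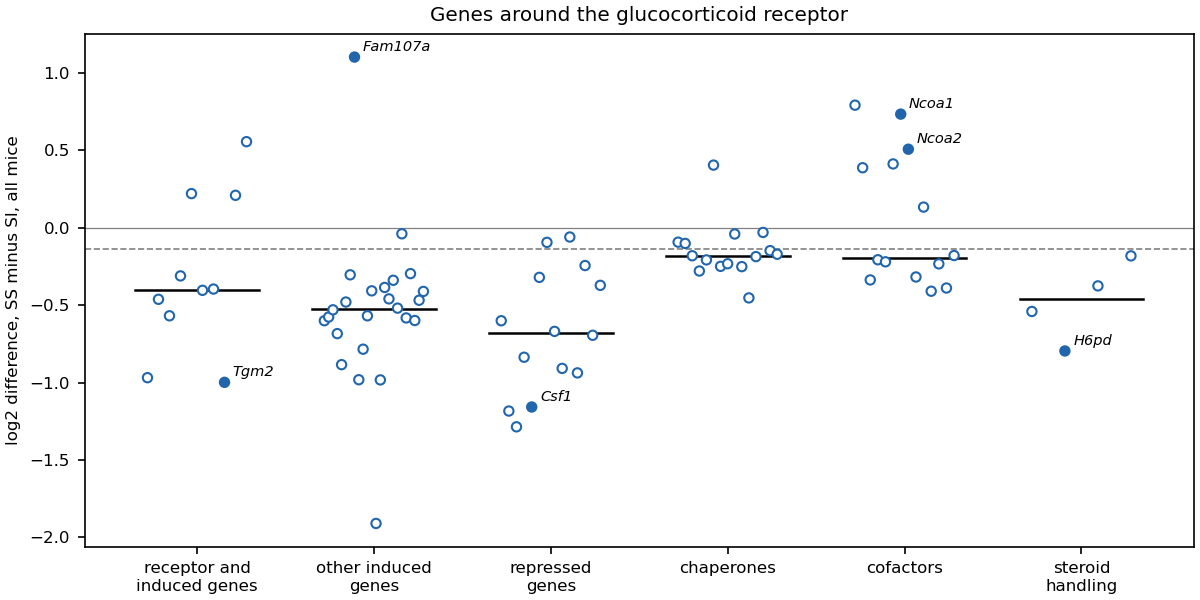
Log2 difference over all mice, SS minus SI, for every tested gene of the 10-gene list and of the pathway lists. Filled points passed at an adjusted p under 0.05 by limma; the medians are -0.40 for the 10 genes, -0.52 for the other induced genes and -0.68 for the repressed genes, against -0.14 over all genes.

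The genes whose pattern was most like that of each of the 10 were found by Pearson's r over the 14 arrays, after each slide was centred, among 11480 other genes. For Nr3c1 they were Smc3 (0.984) and Aggf1 (0.978), and for Dusp1 Fos (0.96) and Zfp36l2 (0.957). For Fkbp5 they were Chpf (0.964) and Thap4 (0.956), for Tsc22d3 Acbd4 (0.946) and Nup43 (0.921), and for Sgk1 Tmem165 (0.94) and Fam118b (0.934). For Ddit4 they were Rapgef2 (0.908) and Tmem185b (0.903), for Klf9 Vmn1r58 (0.939) and Fggy (0.938), and for Zbtb16 Dnase2a (0.978) and Bfar (0.978). Tgm2 was most like Rab19 (0.952) and Bcl2a1c (0.945), and Anxa1 most like Ccno (0.98) and Ankrd22 (0.965). These are descriptions: the points share arrays, scaling and stress groups, and the 20 values lay between 0.891 and 0.982 without SI mouse 4. Among the 10 genes themselves the receptor was closest to Fkbp5 (0.83, and 0.79 without that mouse) and to Ddit4 (0.79 and 0.84), and Tgm2 and Anxa1 stood at 0.67 (0.70). Klf9 was not well above background on the 6 arrays labelled female, so the Klf9 values rest in part on background signal.

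Markers of the cells that lysed blood can hold also differed between SS and SI. All 12 platelet markers rose over all mice, with a median of 1.55, where 7.4% of all probes rose. On the slide labelled male 0 of the 12 passed, as did 0% of all probes. On the slide labelled female 9 rose, as did 3.18% of all probes. The summed level of the platelet markers was 427 to 749 in SS and 106.8 to 426 in SI labelled male, and 465 to 575 in SS and 133 to 172 in SI labelled female. The 10 tested neutrophil markers of 12 summed to 253 to 285 in SS and 166 to 253 in SI labelled male, the opposite order to the slide labelled female. Of the T cell, B cell, NK cell and red cell precursor markers 0 passed over all mice by limma, adjusted or at an unadjusted p under 0.05. T cell markers, 7 tested of 8, summed to 1.91 to 5.35 in SS and 2.74 to 9.02 in SI labelled male, and to 5 to 8.80 and 6.13 to 13.2 on the slide labelled female. All 8 B cell markers were tested, with sums of 10.8 to 25.7 in SS and 12.3 to 29.3 in SI labelled male, and of 27.3 to 36.1 and 13.5 to 26.7 on the slide labelled female. The 6 tested NK cell markers of 8 summed to 2.03 to 8.53 in SS and 1.85 to 10.6 in SI labelled male, and to 4.63 to 9.60 and 18.6 to 20 on the slide labelled female. The 6 tested red cell precursor markers of 10 summed to 932 to 2116 in SS and 676 to 3231 in SI labelled male, and to 726 to 1372 and 1565 to 2590 on the slide labelled female. Klrk1 and Klrd1 of the NK cell list were well above background on 0 arrays, Cd8a on 3, and Mpo of the neutrophil list on 5. Between the 10 genes and the mean levels of these lists, the largest Pearson's r in size was -0.87, for Tsc22d3 with red cell precursor markers. It was 0.86 for Fkbp5 with T cell markers and 0.83 for Anxa1 with neutrophil markers, over 14 arrays with each slide centred. The correlations with marker lists, here and for Tgm2 above, were not taken without SI mouse 4. On its slide that array had the highest mean red cell precursor level, 6.93, and the lowest Tsc22d3 level, 2.00. The part of these cell types in the differences of the 10 genes was not tested.

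**Figure D5:**
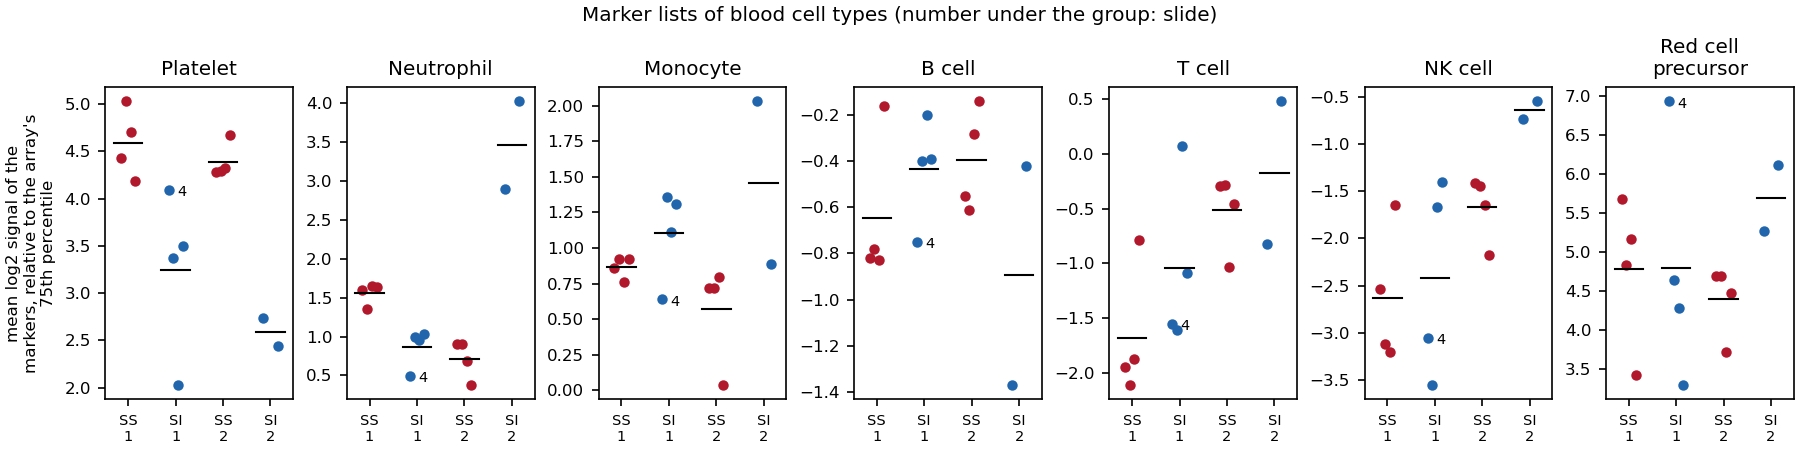
Mean log2 signal of each blood cell marker list relative to the array's 75th percentile (vertical axis), by SS (red) and SI (blue) and slide (1 labelled male, 2 labelled female). Points are mice, lines are group means, and 4 marks the SI labelled male mouse 4; platelet markers are higher in SS on both slides, and neutrophil markers on slide 2 are lower in SS than in SI.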

How the data were processed

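Blood RNA of 14 mice was hybridised to one-colour Agilent arrays of 62976 spots. The deposited scanner files hold processed signals, spot signals and background signals as fluorescence intensity, from which the local background is already subtracted. Per the file headers the software was Agilent Feature Extraction 10.7.3.1; the submitters' processing notes give 9.1. The other columns used are flags (control, outlier, well above background), per the file headers. The authors also deposited a table of 27990 probes with values on a log2 scale, used as an alternative. How it was normalized is not given in the sources used. Each of its columns correlated at 0.969 to 0.979 with its own array and, after probes were centred, best with its own array, with slopes of 0.917 to 1.14, so the direction and the log2 scale hold; column medians were 7.21 to 7.74 and the centring stays unknown.

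Here 3671 control spots were left out. Outlier spots were left out too, except where a probe had no other spot on that array. Spots of a probe were averaged as log2 processed signal (55681 probes). Each array was scaled by the 75th percentile of 14504 probes well above background on all arrays. Testing took the 24013 probes flagged well above background on 6 or more of 14 arrays, with limma 3.58.1 in R 4.3.3 (package data.table, version 1.17.8), two-sided, with slide as a term over all mice, and Benjamini-Hochberg adjustment over all tested probes at 0.05. The 4 comparisons were SS against SI over all mice, on each slide, and the difference between slides. Those on each slide and between slides came from 1 fit of all 14 arrays in 4 groups, which share 1 estimate of spread. Names came from RefSeq through the probes' accessions (26425 probes). The code was tested on simulated data.

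All 10 genes are described whatever their values. Of each pathway list the genes passing over all mice are named, or else the 3 with the largest differences; other names in the text are examples chosen after their values were seen. The genes and lists were chosen with earlier results of these data known. Alternatives were 3 other scalings, normexp with offset 50, 2 filters, the deposited table, the median over a gene's probes, slide as a random block, array row as a term, and leaving out each array.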

Additional observations from a re-analysis of the deposited data

Results flagged for a closer look

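In each of the 30 sets of 4 arrays formed by the 10 genes and the groups of 4 mice, the highest and lowest array were compared with the rest by Dixon's criterion, which chance meets in about 1 set in 20. It was met in 3. Nr3c1 stood at 0 in SS labelled female mouse 23, where the other 3 lay between -0.17 and -0.16. Ddit4 stood at 0.56 in SS labelled female mouse 22, where the others lay between 0.01 and 0.09. Anxa1 stood at 1.45 in SI labelled male mouse 4, where the others lay between 3.03 and 3.29. For Nr3c1 and Ddit4 the other 3 levels lie close together, so gaps smaller on the log2 scale than that of Anxa1 meet the criterion. Mouse 4 is the array that also correlated least with its group.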

How the results depend on the processing

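No paired analysis was possible because SS and SI mice share no mouse number. Outside the fits that left out an array, 380 of 415 single-gene results kept their direction and their side of the threshold, 21 no longer passed, and 14 reversed. With the 75th percentile over all probes, the slide labelled male had 2 probes past the threshold in place of 0, Tsc22d3 there stood at -0.163 and the Tgm2 difference between the slides at 0.103. Scaling by the median gave 1 probe on that slide. Quantile normalization gave 2 probes there and 17 in place of 11 for the difference between the slides, with Tsc22d3 at -0.155 on the slide labelled male and Klf9, dim there, at 0.154 on the slide labelled female. Normexp gave 1245 probes over all mice in place of 1915 and 410 on the slide labelled female in place of 960, with Tsc22d3 at -0.0139 on the slide labelled male, Zbtb16 at -0.15 on the slide labelled female, and Fkbp5 at -0.0527 between the slides. With no filter on dim probes, more probes were adjusted over, 1125 passed over all mice and 52 on the slide labelled female, and 0 of the 10 genes passed in either. With the deposited values 174 probes passed on the slide labelled male, 461 on the slide labelled female (0 of the 10 genes) and 36 between the slides. With them Nr3c1 stood at 0.0546, Tsc22d3 at -0.0152 and Sgk1 at 0.0145 on the slide labelled male, and between the slides Nr3c1 at -0.288, Sgk1 at -0.547, Dusp1 at -1.34 and Ddit4 at -0.00427. The causes were not tested.

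Leaving out each of the 14 arrays in turn gave 1489 to 3858 probes and 0 to 2 of the 10 genes over all mice, 0 to 9412 probes and 0 to 7 genes on the slide labelled male, 45 to 1912 probes and 0 to 1 gene on the slide labelled female, and 1 to 669 probes and 0 to 1 gene between the slides. The highest of these counts came without SI mouse 4. Of the single genes that reversed, Tsc22d3 ran from -0.162 to 0.124 on the slide labelled male. On the slide labelled female Fkbp5 ran from -0.64 to 0.218, Sgk1 from -0.786 to 0.282, Dusp1 from -1.09 to 0.205, Klf9 from -0.862 to 0.293 and Zbtb16 from -0.0241 to 0.109. Between the slides Fkbp5 ran from -0.262 to 0.596, Sgk1 from -0.294 to 0.774, Dusp1 from -0.435 to 0.95, Ddit4 from -0.11 to 0.329 and Tgm2 from -0.712 to 0.238. Without mouse 27 or 28 a single SI mouse is left on its slide and is assumed to vary like the others.

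The median over all probes on the slide labelled male was 0.09, and -0.09 with the 75th percentile over all probes or quantile normalization; on the slide labelled female it was -0.11, and 0.05 and 0.02. Dim signal limits Klf9.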
